A study of Mus musculus with 10 samples.

Results

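The genes described here are 10 transcripts of inflammatory signalling, Tnf, Il1b, Il1a, Il6, Nfkbia, Icam1, Tnfaip3, Nlrp3, Ptgs2 and Tgfb1. They were taken by symbol, by a rule that names no measured value but was written with earlier results of these data known, and all 10 have a row among the 21956 genes of the table. RNA was sequenced in 10 libraries from the hippocampus of mice of genotype hMapt, which by the series title serve to study circTau6, a circular RNA made from the human tau gene MAPT. The control group held 5 libraries, from mice called control-injected in the labels' protocol without the agent being named. The circTau6 group held 5 libraries, from mice given the AAV-circTau6 injection, an adeno-associated virus that delivers circTau6, and the series text places sampling 80 days after it. Animals of both groups carried the same genotype and were 6 months old, and the labels state neither sex, nor the promoter of the vector, nor the cells it reached, nor whether a library is 1 animal or a pool. Total counts per library ran from 14762952 to 17647138, and in bulk tissue fewer cells of a type and less RNA per cell cannot be told apart.

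NF-kB is a family of transcription factors held inactive in the cytoplasm by inhibitor proteins. Receptors for tumour necrosis factor and interleukin-1 start a kinase cascade that destroys the inhibitor, and the freed factor turns on cytokines, adhesion molecules and its own inhibitors, which close the loop. In the brain, microglia are a main source of these cytokines and make little of them at rest, while cyclooxygenase-2, the product of Ptgs2, is also made by excitatory forebrain neurons and is induced there by synaptic activity.

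By GENCODE M21 on GRCm38, matched by gene ID, all 10 are protein-coding genes on separate chromosomes except Il1a and Il1b, which lie near each other on the minus strand of chromosome 2. Ptgs2 spans chr1:150100031-150108227 on the plus strand, Icam1 chr9:21015985-21028817 on the plus strand, Nfkbia chr12:55489410-55492647 on the minus strand and Nlrp3 chr11:59541568-59566956 on the plus strand.

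Because several of the genes are known targets of NF-kB, the bases just before their transcription starts were searched for the factor's binding letters. In RefSeq promoters of GRCm38.p6, all 10 genes were found, with 12 annotated starts, and the 250 bases before each start were searched on both strands for the NF-kB consensus, a motif of 10 letters. Of these 12 promoters, 5 held a match, each of a different gene, while 7.25% of 32851 promoters in the same table held one. The matches are shown in capitals with up to 10 bases on each side, read 5′ to 3′ on the strand of the gene, so that the letters found can be compared between genes:
Il6, chr5:30013060-30013089, plus strand: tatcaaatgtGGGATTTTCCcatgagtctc
Nfkbia, chr12:55492657-55492686, minus strand: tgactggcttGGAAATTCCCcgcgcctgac
Tnfaip3, chr10:19015516-19015545, minus strand: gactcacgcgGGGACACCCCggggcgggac
Tnfaip3, chr10:19015411-19015432, minus strand: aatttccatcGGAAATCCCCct
Nlrp3, chr11:59541373-59541402, plus strand: ggcttctgcaGGGAACCCCCgggaattctg
Tgfb1, chr7:25686852-25686881, plus strand: cagggctgaaGGGACCCCCCttggagcccg
The centres of these matches lay 39 bases before the start for Il6, 24 for Nfkbia, 120 and 7 for Tnfaip3, 181 for Nlrp3 and 135 for Tgfb1. The windows of Tnf, Il1b, Il1a, Icam1 and Ptgs2 held no match, which says only that these letters are not there. The AP-1 motif TGANTCA, searched the same way, was found in 3 of the 12 promoters, those of Il1a, Il6 and 1 start of Tnfaip3, and in 6.75% of all promoters. In Tnfaip3 the AP-1 match was centred 133 bases before the start and lay just ahead of the first NF-kB match, without sharing a base with it.

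Transcripts of the main inflammatory cytokines were barely detected in either group. Tnf, which encodes tumour necrosis factor, had 1, 2, 0, 1 and 1 counts in control replicates 1 to 5 and 0, 1, 4, 3 and 0 counts in circTau6 replicates 1 to 5. Il6, which encodes interleukin-6, had 5, 0, 3, 0 and 2 counts in control libraries and 2, 4, 1, 3 and 3 in circTau6 libraries. The groups overlapped throughout, and sums of 5 against 8 counts for Tnf and 10 against 13 for Il6 lie at a mean under 3 counts per library, so no fold is given. A floor of 3 counts equals 0.170 to 0.204 CPM (counts scaled to library depth by TMM) in these libraries, for counting error only.

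Il1b, which encodes the secreted interleukin-1 beta that needs cleavage by caspase-1, had 6, 5, 5, 0 and 5 counts in control libraries and 1, 4, 12, 3 and 5 counts in circTau6 libraries. The highest and nearly the lowest values were both in the circTau6 group. Tnf, Il6 and Il1b fell below the low-count filter of the edgeR test. Fitted without that filter, Il1b had a log2 fold change of 0.18 ± 0.70 (SE), a 95% interval from 0.409 to 3.14 times the control level and an adjusted p of 0.984 in edgeR, where 0.0109% of genes were called. The interval spans levels both well below and well above control, so neither a change within it nor the absence of one is shown.

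Il1a, which encodes interleukin-1 alpha, a cytokine active without cleavage, was the most abundant of these cytokines and passed the filter. It had 6 to 15 counts in control and 7 to 18 counts in circTau6 libraries, or 0.705 ± 0.218 CPM against 0.739 ± 0.254 CPM (SD, n = 5 each). The ranges overlapped almost wholly, with a fold change of 1.05, a 95% interval from 0.619 to 1.78 and an adjusted p of 0.994 in edgeR. The direction rested on single libraries: the log2 fold change of 0.07 became −0.081 without control replicate 1, −0.077 without circTau6 replicate 1 and −0.035 without circTau6 replicate 4.

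**Figure D1:**
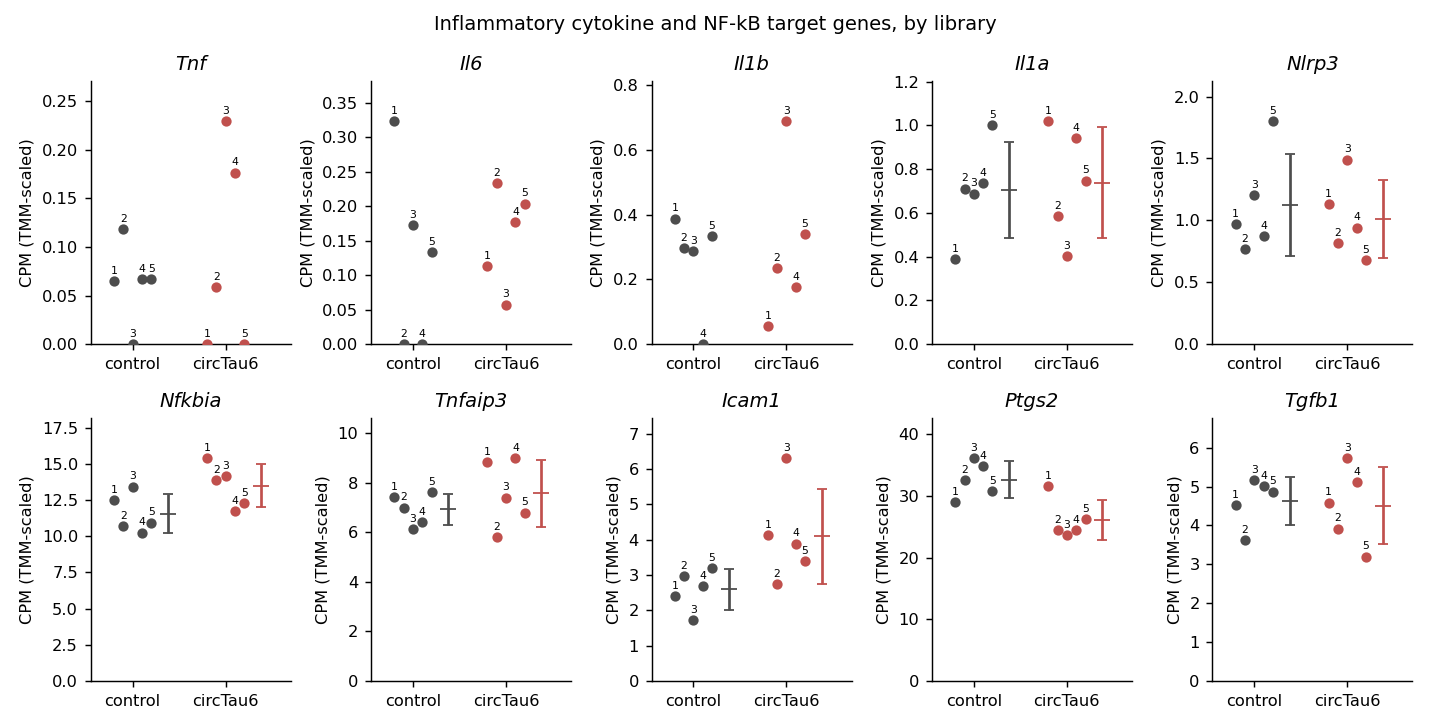
Level of each gene in CPM (vertical axes, linear and from 0) in the 5 control and 5 circTau6 libraries, points numbered by replicate, with the mean ± SD beside each group for the 7 genes that passed the low-count filter. Tnf, Il6 and Il1b stay under 0.7 CPM in every library, Ptgs2 is lower than every control in 4 of 5 circTau6 libraries, and Icam1 is higher than every control in 4 of 5.

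Nlrp3, the sensor that assembles the inflammasome and thereby activates caspase-1, did not differ detectably by counts, and its deposited TPM gave a different picture. Counts were 15, 13, 21, 13 and 27 in control and 20, 14, 26, 16 and 10 in circTau6 libraries. The largest and the smallest values were control replicate 5 and circTau6 replicate 5, and the groups overlapped. The log2 fold change was −0.14 ± 0.32 (SE), a fold of 0.909 with a 95% interval from 0.566 to 1.46, and the edgeR adjusted p was 0.991. It turned to 0.090 without control replicate 5.

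In TPM (transcript abundance relative to the library, which also divides by the transcript length assigned to the gene), control replicate 2 had 1.22 for Nlrp3, the highest of all libraries, although its 13 counts were among the lowest. It received 0.0937 TPM per count, against 0.0355 to 0.0489 in the other libraries. For the other 6 genes past the filter, the highest TPM per count was 1.22 times the lowest, and for Nlrp3 it was 2.64 times. GENCODE M21 lists 3 transcripts of Nlrp3, from 676 to 4021 bases, and RefSeq 2 starts. Which lengths the authors' counting used in each library was not tested. In the authors' deposited table the log2 fold change of Nlrp3 is −0.38, and the same ratio of mean TPM without control replicate 2 was −0.22.

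**Figure D2:**
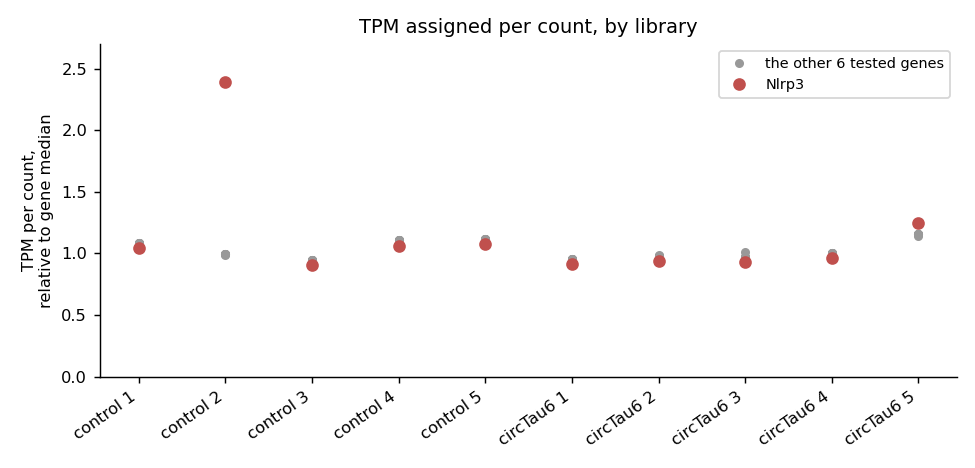
TPM per count (vertical axis, each gene relative to its own median over the libraries) in each of the 10 libraries for Nlrp3 (red) and the other 6 genes past the low-count filter (grey). Nlrp3 stands apart in control replicate 2, where a count was worth 0.0937 TPM, while the other genes follow each other from library to library.

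The feedback inhibitors of NF-kB had slightly higher mean values in the circTau6 group, and neither passed the test. Nfkbia encodes IkB-alpha, the inhibitor that holds NF-kB in the cytoplasm, and is itself a rapid target of the factor. It had 12.5, 10.7, 13.4, 10.2 and 10.9 CPM in control replicates 1 to 5 and 15.4, 13.9, 14.2, 11.7 and 12.3 CPM in circTau6 replicates 1 to 5. Replicates 1, 2 and 3 of the circTau6 group exceeded all 5 controls, and replicates 4 and 5 lay within the control range. The fold change was 1.17, with a 95% interval from 1.00 to 1.36, an unadjusted p of 0.0494 and an adjusted p of 0.981 in edgeR.

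Tnfaip3 encodes A20, a ubiquitin-editing enzyme that shuts off signalling upstream of the NF-kB kinases. It had 6.14 to 7.61 CPM in control libraries against 5.79 to 9.0 CPM after circTau6. The circTau6 group spread on both sides of the controls, with 2 libraries above and 1 below all of them. The fold change was 1.09, with a 95% interval from 0.896 to 1.34 and an edgeR adjusted p of 0.981.

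Icam1 had the largest log2 fold change of the tested genes in the set, and most circTau6 libraries lay above the controls. It encodes intercellular adhesion molecule 1, which endothelial cells and glia display to bind leukocyte integrins. Levels were 2.39, 2.97, 1.72, 2.68 and 3.20 CPM in control replicates 1 to 5 and 4.13, 2.75, 6.31, 3.88 and 3.40 CPM in circTau6 replicates 1 to 5. Above every control lay 4 of 5 circTau6 libraries, with replicate 2 inside the control range and replicate 3 well above the rest. The log2 fold change was 0.66 ± 0.23 (SE), a fold of 1.58 with a 95% interval from 1.12 to 2.24, at an unadjusted p of 0.0124 and an adjusted p of 0.981 in edgeR. Without circTau6 replicate 3 the log2 fold change was 0.45, and without circTau6 replicate 2 the groups no longer overlapped.

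Markers of several other cell types also stood at their highest or lowest in circTau6 replicate 3. The summed level of 8 endothelial markers was 283 CPM in circTau6 replicate 3, against 214 to 252 CPM in control libraries and 220 to 252 CPM in the remaining ones of the circTau6 group. The summed level of 6 meningeal fibroblast markers was 433 CPM there, the highest of all libraries, with 133 to 326 CPM in control libraries and 106 to 363 CPM in the remaining ones of the circTau6 group. That of 8 border macrophage and monocyte markers was 30.9 CPM, against 10.04 to 19.6 CPM in control libraries and 11.7 to 21.8 CPM in the remaining ones of the circTau6 group. Choroid plexus markers, at a summed 5550 CPM, and mural cell markers, at 183 CPM, were highest there too, while the sums for neurons, hippocampal neurons and astrocytes were lowest, at 8276, 914 and 3536 CPM. The part of this make-up in the level of Icam1 was not tested.

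The integrin genes that pair with Icam1 on leukocytes and microglia had positive log2 fold changes in 4 of 4 cases, against 49.9% of all tested genes, and 0 of 4 passed the edgeR test, against 0%. Itgb2, the shared beta chain, had 5.44 ± 1.19 CPM in control libraries against 7.89 ± 1.01 CPM after circTau6 (SD, n = 5 each), a log2 fold change of 0.54 ± 0.16 (SE). Itgal, the alpha chain of LFA-1, had 0.87 ± 0.35 (SE) on the log2 scale, Itgax, the alpha chain of CD11c/CD18, 0.97 ± 0.47 (SE), and Itgam, the alpha chain of Mac-1, 0.15 ± 0.10 (SE). All 4 had an adjusted p of 0.981 in edgeR, while the unadjusted p was 0.00365 for Itgb2, 0.0235 for Itgal, 0.0569 for Itgax and 0.147 for Itgam. Vcam1, another endothelial adhesion molecule and NF-kB target, had a log2 fold change of 0.06 ± 0.21 (SE). Its lowest levels, 30.5 CPM in circTau6 replicate 5 and 34.9 CPM in control replicate 2, were in the libraries that nearly lacked choroid plexus markers. The part of choroid plexus content in the level of Vcam1 was not tested.

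Ptgs2 had the lowest p of the set and lower values in the circTau6 group, opposite in sign to Icam1 and Nfkbia. It encodes cyclooxygenase-2, which makes the precursor of prostaglandins. Counts ran from 386 to 631, so counting error is small for this gene. Levels were 29.0, 32.6, 36.2, 34.9 and 30.8 CPM in control replicates 1 to 5 and 31.7, 24.5, 23.6, 24.5 and 26.2 CPM in circTau6 replicates 1 to 5. Below every control lay 4 of 5 circTau6 libraries, and replicate 1 lay inside the control range. The means were 32.7 ± 2.95 CPM in control libraries against 26.1 ± 3.25 CPM after circTau6 (SD, n = 5 each). The fold change was 0.799, with a 95% interval from 0.703 to 0.908, an unadjusted p of 0.00194 and an adjusted p of 0.845 in edgeR, the 33rd lowest p of 14396 genes tested. Without circTau6 replicate 1 the groups did not overlap and the log2 fold change went from −0.32 to −0.40, still not past the threshold.

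Other genes induced by neuronal activity did not pass the test in either direction. Among 10 activity-dependent neuronal genes, 7 had a log2 fold change above 0, against 49.9% of all tested genes, with a median of 0.08, and 0 passed the edgeR test, against 0%. Fos, an immediate-early transcription factor, had 0.61 ± 0.41 (SE) and Egr1, another such factor, 0.12 ± 0.28 (SE), with adjusted p of 0.981 and 0.991 in edgeR. Of 7 neuron markers, 1 had a log2 fold change above 0, and their summed level was 8679 to 9661 CPM in control libraries against 8276 to 9305 CPM after circTau6. Ptgs1, the constitutive cyclooxygenase, had 0.14 ± 0.10 (SE), and Ptges, an inducible prostaglandin E synthase, 0.28 ± 0.22 (SE).

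**Figure D3:**
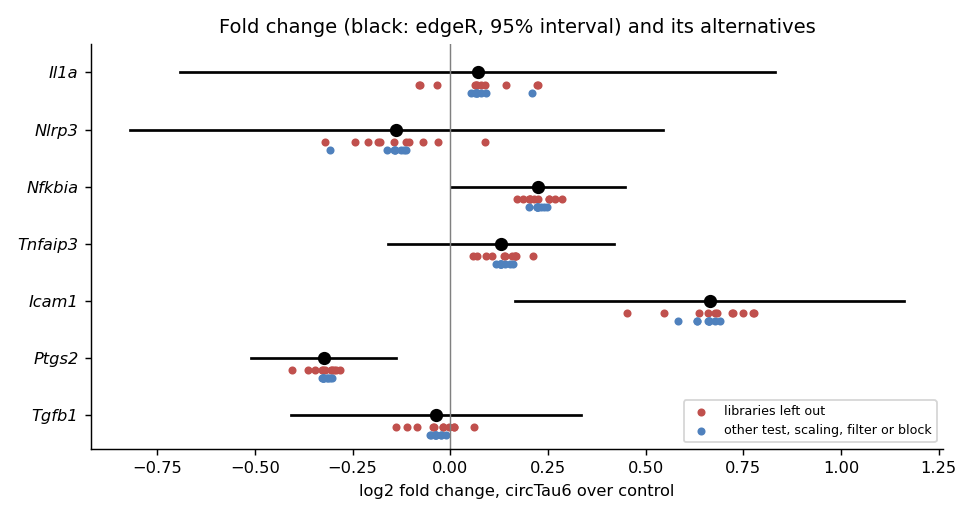
Log2 fold change of circTau6 over control (horizontal axis) for the 7 genes past the low-count filter: black points and lines are the edgeR value and its 95% interval, red points the values with libraries left out, blue points those under another test, scaling, filter or a replicate block. Icam1, Nfkbia and Tnfaip3 stay above 0 and Ptgs2 below 0 in every setting, while Il1a, Nlrp3 and Tgfb1 lie on both sides.

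Nfkbia and Ptgs2 were the most abundant members per transcript length, and their ratio lay higher in the circTau6 group. In control libraries they were level, at 18.0 ± 2.04 TPM for Nfkbia and 18.1 ± 1.49 TPM for Ptgs2 (SD, n = 5 each). In circTau6 libraries they were at 21.3 ± 2.24 TPM and 14.6 ± 1.80 TPM. The ratio of Nfkbia to Ptgs2 TPM within each library, in which library scaling cancels, was 1.22, 0.924, 1.05, 0.829 and 1.00 in control and 1.37, 1.60, 1.69, 1.35 and 1.32 in circTau6 replicates 1 to 5. The 2 groups did not overlap, by a narrow gap between control replicate 1 and circTau6 replicate 5. This ratio was singled out after the values were seen and carries no test. Of 21 ratios of TPM between tested members, 4 did not overlap between groups (19.0%). Besides Nfkbia to Ptgs2, these were the ratios of Icam1 to Tnfaip3, to Nlrp3 and to Ptgs2. That of Icam1 to Nlrp3 depends on the Nlrp3 TPM of control replicate 2, apart at 0.0937 TPM per count. By counts it overlapped between groups, with 50 for Icam1 and 13 for Nlrp3 in control replicate 2 against 47 and 14 in circTau6 replicate 2. Of the ratios of Ptgs2 to each other tested gene 6.49% did not overlap, with 1.64% for Nfkbia. These shares were taken from counts, so they are not like for like with the 19.0%. No such share was taken for Icam1 or for pairs of all tested genes.

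**Figure D4:**
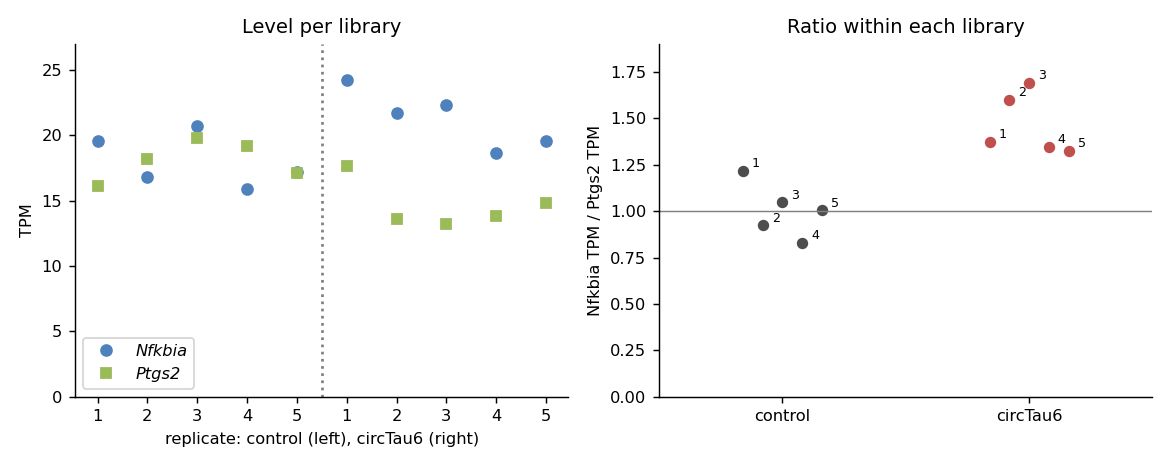
Left, TPM of Nfkbia (circles) and Ptgs2 (squares) in each of the 5 control and 5 circTau6 libraries; right, their ratio within each library, points numbered by replicate. The control ratios run from 0.829 to 1.22 and the circTau6 ratios from 1.32 to 1.69.

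Tgfb1, which encodes the anti-inflammatory and tissue-remodelling cytokine transforming growth factor beta 1, had close mean levels in both groups. It had 4.64 ± 0.618 CPM in control libraries against 4.51 ± 0.995 CPM after circTau6 (SD, n = 5 each). The highest value, 5.74 CPM, and the lowest, 3.19 CPM, were both in the circTau6 group, in replicates 3 and 5. The fold change was 0.975, with a 95% interval from 0.754 to 1.26 and an edgeR adjusted p of 0.994. Its log2 fold change of −0.04 became 0.0092 without control replicate 3, 0.010 without circTau6 replicate 2 and 0.062 without circTau6 replicate 5.

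By mean TPM over the 10 libraries, the order was Nfkbia at 19.7, Ptgs2 at 16.4, Tgfb1 at 5.26, Tnfaip3 at 4.07, Icam1 at 3.28, Il1a at 0.908, Nlrp3 at 0.752, Il1b at 0.513, Il6 at 0.275 and Tnf at 0.129. The inhibitors, effectors and Tgfb1 thus lay above 3 TPM, and the inflammatory cytokines with their inflammasome sensor below 1 TPM. The ranges over the libraries overlapped between neighbours in this order, except between Ptgs2, with at least 13.2 TPM, and Tgfb1, with at most 6.97 TPM, and between Icam1, with at least 1.65 TPM, and Il1a, with at most 1.28 TPM.

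Of the 10 genes, 7 passed the low-count filter, and 0 of these 7 had an adjusted p under 0.05 in edgeR, against 0 of 14396 genes tested (0%). At an unadjusted p under 0.05 there were 3 of 7, Ptgs2 lower and Icam1 and Nfkbia higher, against 4.42% of all tested genes, 2.58% higher and 1.85% lower. The choice of genes was made with earlier results known. DESeq2 called 0 of the 7 at an adjusted p under 0.05, against 0.0903% of all genes. At an unadjusted p under 0.05 it had 2 of the 7 and 641 genes in all. Limma voom also called 0, against 0.0139%, with 2 of the 7 and 721 genes in all at an unadjusted p under 0.05. The 3 of edgeR thus depend on the tool, and of these Nfkbia lay nearest the threshold, at an edgeR p of 0.0494. Without overlap between groups were 0 of the 7, against 0.472% of tested genes with every circTau6 library above and 0.368% with every one below every control. A log2 fold change above 0 was seen in 4 of the 7, against 49.9% of tested genes. The median log2 fold change was 0.07 over the 7 genes and −0.00024 over all tested genes.

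Of the 10 genes, 0 have in the authors' deposited table an FDR under 0.05, against 0.0364% of its genes, and their lowest FDR is 0.982, for Icam1. The same deposited table gives an unadjusted p of 0.00543 for Icam1, 0.0395 for Ptgs2 and 0.0509 for Nfkbia, and 3.06% of its genes are under 0.05.

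Receptors, kinases and other genes of the same pathways were read from 11 lists, chosen with earlier results of these data known. They held 149 genes, of which 120 passed the filter. Of these, 0 had an adjusted p under 0.05 in edgeR, against 0% of all tested genes, the lowest being 0.852. At an unadjusted p under 0.05, 12 were higher and 1 was lower, or 10.8% against 4.42% of all tested genes. The median log2 fold change of the 120 was 0.06.

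No gene of the core of the pathway passed the edgeR test, as was the case for all 14396 genes tested. In the list of NF-kB subunits and kinases 0 of 16 had an unadjusted p under 0.05, against 4.42% of all tested genes. Log2 fold changes there ran from −0.22 to 0.31, with a median of 0.04. Rela, the p65 subunit, had 0.17 ± 0.10 (SE), Nfkb1, the precursor of p50, 0.14 ± 0.07 (SE), Nfkb2, the precursor of p52, −0.22 ± 0.20 (SE) and the kinase gene Ikbkb −0.05 ± 0.06 (SE). Among inhibitors and feedback genes 11 of 12 were tested, with a median of 0.06. Of these, 1 had an unadjusted p under 0.05, against the same 4.42%. It was the adaptor gene Traf3, at −0.11 ± 0.04 (SE) and an edgeR adjusted p of 0.981. The other IkB genes Nfkbib, Nfkbie and Nfkbiz had 0.12 ± 0.10, 0.37 ± 0.28 and 0.06 ± 0.12 (SE), and Tnip1, a partner of A20, had 0.01 ± 0.09 (SE). Of 24 other NF-kB targets only 11 passed the filter, with a median of 0.10. That median does not cover the genes below the filter, whose mean CPM was lower after circTau6 in some and higher in others. The lowest p of the 11 lists was that of Cybb, which encodes the catalytic subunit of the phagocyte NADPH oxidase, at 0.95 ± 0.26 (SE), an unadjusted p of 0.00207 and an edgeR adjusted p of 0.852. The chemokine gene Ccl2 did not pass the filter, with 20 counts in all control and 9 in all circTau6 libraries. These sums rested on few libraries, with 12, 0, 7, 1 and 0 counts in control and 6, 0, 0, 2 and 1 in circTau6 replicates 1 to 5.

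Among the receptors of the panel, the largest log2 fold change was that of the second TNF receptor gene. Tnfrsf1b, which is mainly found on immune cells and microglia, had 3.49 ± 0.677 CPM in control libraries against 5.13 ± 1.00 CPM after circTau6 (SD, n = 5 each). Above every control lay 4 of 5 circTau6 libraries, and the log2 fold change was 0.56 ± 0.18 (SE) with an unadjusted p of 0.00760 and an adjusted p of 0.981 in edgeR. Tnfrsf1a, the widely expressed first TNF receptor, had 0.26 ± 0.14 (SE). In the list of TNF processing and receptors 11 of 14 were tested and the median was 0.17.

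Tgfbr2, the ligand-binding receptor of TGF-beta, had 0.33 ± 0.12 (SE) on the log2 scale, with 3 of 5 circTau6 libraries above every control. Its unadjusted p was 0.0127 and its adjusted p 0.981 in edgeR, while Tgfbr1 had 0.08 ± 0.07 (SE). The ligand genes Tgfb2 and Tgfb3 had −0.08 ± 0.11 and 0.11 ± 0.12 (SE), and the median over 16 TGF-beta signalling genes was 0.03. The IL-6 receptor genes Il6ra and Il6st had 0.19 ± 0.12 and 0.04 ± 0.05 (SE), with a median of 0.04 over 11 of 13 tested genes of IL-6 family signalling. Il1r1, the signalling receptor of interleukin-1, had −0.01 ± 0.12 (SE), and its antagonist gene Il1rn had 4 and 9 counts over the control and circTau6 libraries. Caspase-1 and its adaptor ASC, encoded by Casp1 and Pycard, had 0.40 ± 0.30 and −0.25 ± 0.24 (SE), and the median over 13 of 19 tested genes of IL-1 family signalling and the inflammasome was 0.01.

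In prostaglandin synthesis and receptors 12 of 13 genes were tested with a median of 0.09, and in anti-inflammatory cytokine genes 5 of 8 with a median of 0.02. Il10, whose product restrains inflammation, had 0 counts in every library. Ptger3, a prostaglandin E receptor gene named here after its values were seen, was the 1 gene of the 120 tested in the 11 lists with every circTau6 library above every control, against 0.472% of all tested genes, at a log2 fold change of 0.62 and an edgeR adjusted p of 0.981.

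**Figure D5:**
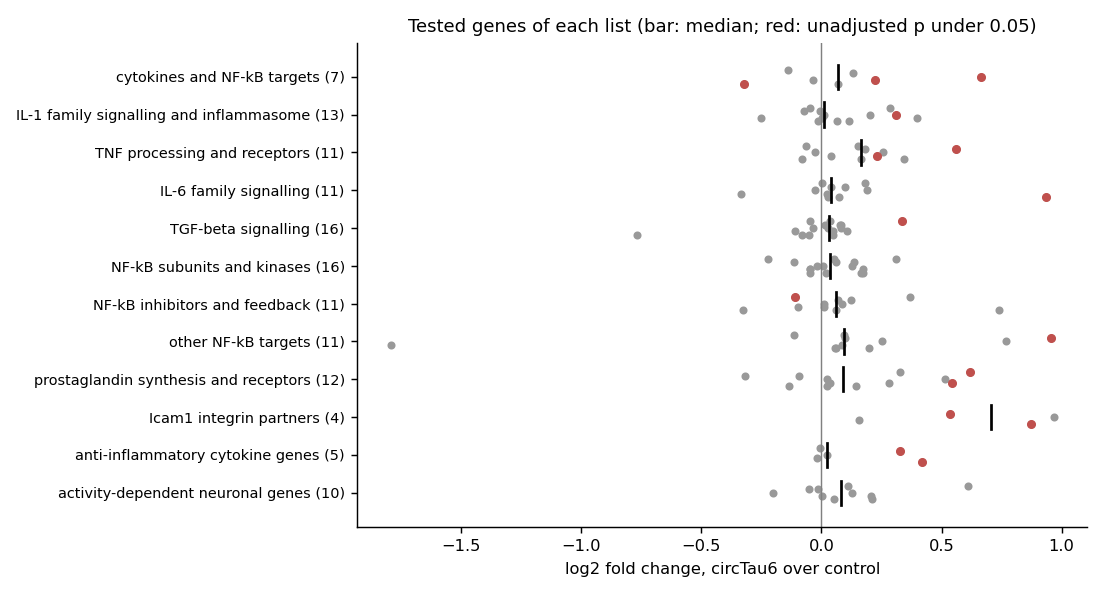
Log2 fold change of circTau6 over control (horizontal axis) for each tested gene of the described set and of the 11 pathway lists, with the number tested in brackets, the median as a black bar and genes with an unadjusted p under 0.05 in red. Medians lie between 0.01 and 0.17 except for the Icam1 integrin partners at 0.70, and no gene shown passed the adjusted threshold.

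Markers of the cells that could carry these transcripts were read in the same libraries. Hippocampal neuron markers were present throughout, at a summed 998 to 1158 CPM in control libraries against 914 to 1125 CPM after circTau6 for 5 of 5 markers. Of these 5, 1 had a log2 fold change above 0, and 1, Neurod6, was lower at an unadjusted p of 0.0439. The part of neuronal content in the level of Ptgs2 was not tested. The summed level of 9 microglia markers was 358 to 387 CPM in control libraries against 389 to 415 CPM after circTau6, without overlap. The gap was narrow, from 387 CPM in control replicate 2 to 389 CPM in circTau6 replicate 4. Of these 9 markers, 8 had a log2 fold change above 0 and 5 had an unadjusted p under 0.05, against 49.9% and 4.42% of all tested genes, and 0 passed the adjusted edgeR test. Of the 13 marker lists, only this sum had every circTau6 library above every control. Of single tested genes 0.472% did, and no such share was taken for sums of genes. Markers of T and NK cells, B cells and neutrophils were low and none of them passed the low-count filter. The summed level of 7 T and NK cell markers was 0.268 to 1.54 CPM in the controls and 1.02 to 3.28 CPM after circTau6, with 4 of 5 circTau6 libraries above every control. For 4 B cell markers it was 0.335 to 0.830 CPM and 0.204 to 1.88 CPM, with 3 above, and for 6 neutrophil markers, with Ly6g at 0, 0.119 to 2.20 CPM and 0.566 to 3.77 CPM, with 2 above. Ccr2, a receptor gene of monocytes and some T cells, had a log2 fold change of 1.52 ± 0.60 (SE), an unadjusted p of 0.0241 and an edgeR adjusted p of 0.981. The part of microglial and leukocyte content in the values of Icam1, Nfkbia, Itgb2, Itgal, Itgax, Cybb and Tnfrsf1b was not tested. Choroid plexus markers were nearly lacking in control replicate 2 and circTau6 replicate 5, at a summed 78.1 and 71.8 CPM against at least 1916 CPM in the other libraries. Without both, the log2 fold change was 0.77 for Icam1, −0.33 for Ptgs2 and 0.22 for Nfkbia, with 0 of the 7 genes called.

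Genes with the most similar pattern over the 10 libraries were listed for the tested members by Pearson correlation of log2 CPM among at least 13094 genes, as a description with no test, since the highest of so many values is high by choice. For Ptgs2 they were Wdtc1, Plekha3 and Csnk1g1, at 0.97, 0.93 and 0.93. For Icam1 they were Rassf4, Ehd2 and Ahnak, at 0.94, 0.93 and 0.92. For Nfkbia they were Naip5, Asxl3 and Pald1, at 0.92, 0.90 and 0.88. For Tnfaip3 they were Spg21, Tagln2 and Serping1, at 0.89, 0.87 and 0.87. For Tgfb1, Nlrp3 and Il1a the nearest were Vwa5b1 at 0.98, Prorp at 0.96 and Smarcc1 at 0.94. No 2 members shared a gene among their nearest 3, which does not show that their patterns differ, since only 3 of at least 13094 genes were taken.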

How the data were processed

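Per the labels' protocols, hippocampal RNA with an integrity number above 8.0 was depleted of ribosomal RNA and read from strand-specific libraries at 150 bp per mate. RSEM and StringTie 1.3.1 appear, without a role, among the tools of the submitters' processing notes; the aligner, build, annotation and test were not stated. The authors deposited, per the file headers, counts and TPM per gene and library, the group means of TPM, their log2 fold change, and a p-value and FDR. In 108 entries a count of 0 stands beside a TPM above 0, so the deposited counts may be rounded estimates; no rounding was added. The log2 value in the authors' table equals the log2 ratio of mean TPM.

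From the counts, genes were filtered with filterByExpr (minimum count 10), scaled with TMM and tested across all genes with the quasi-likelihood F test of edgeR 4.0.16 in R 4.3.3 (robust fit, Benjamini-Hochberg, threshold 0.05). Standard errors are the log2 fold change over the root of F, and intervals are 95%. DESeq2 1.42.0, limma 3.58.1 (voom with quality weights, and log2(TPM + 0.1)), other scalings and filters, a replicate block and leaving libraries out were alternatives, and the tools were tested on simulated data. Library pairs within a group differed by more than sampling noise (chi-square per degree of freedom at least 4.07). The labels do not say that the libraries are separate animals, so p-values measure the spread between these samples, which may be technical. Gene locations are GENCODE M21 and promoters RefSeq, both on GRCm38, matched by ID and symbol.

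The members and lists were chosen with earlier results of these data known. Named genes are the 10 members, a panel of 29 pathway genes, and the 3 most similar genes per tested member; Ptger3, Il10, Lcn2, Itgax, Traf3, Cybb, Ccr2 and Neurod6 were named after their values were seen.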

Additional observations from a re-analysis of the deposited data

Results flagged for a closer look

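Il1b in control replicate 4 had 0 counts, or 0 CPM, while the other 4 control libraries had 0.287 to 0.388 CPM, so this library lay far from the rest of its group. Of 20 groups of 5 values examined for the 10 genes this was the only such case, and chance alone picks out about 5 in 100. At 5 or 6 counts in the other control libraries the gap is 5 counts wide.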

How the results depend on the processing

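Under 21 alternatives 0 of the 10 genes were called and 0 genes were lower at an adjusted p under 0.05. The count of genes called higher, 0 in edgeR, was 13 with DESeq2, 2 with limma voom, 2 with library totals only, 2 with no low-count filter, 4 with a replicate block, 2 at an adjusted p under 0.1, 3 without both choroid-poor libraries, and 0 to 4 with each library left out. At an unadjusted p under 0.05 edgeR had 637 genes, DESeq2 641 and voom 721. Same-numbered libraries were not treated as paired in the main test. Their deviations correlated at −0.08 to 0.14, and 1 of 10 libraries correlated best with its own number, which cannot exclude a pairing. The replicate block, with 4 genes called, changed no call of the 10 genes. Icam1, Nfkbia, Tnfaip3 and Ptgs2 kept their direction under 20 alternatives each, at log2 fold changes of 0.45 to 0.78, 0.17 to 0.29, 0.06 to 0.21 and −0.40 to −0.28, and the lowest adjusted p among them was 0.270, for Ptgs2 with DESeq2. With each library left out, the log2 fold change ran from −0.081 to 0.23 for Il1a, −0.32 to 0.090 for Nlrp3 and −0.14 to 0.062 for Tgfb1, so their direction turned; the cause was not tested. The number of tested members without overlap, 0, was 0 to 1 with each library left out. Il1a and Nlrp3 gave no value under the filter of 1 CPM in 5 libraries. Depth limits Tnf, Il6 and Il1b, at 0 to 12 counts per library.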

Other observations

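Lcn2, which encodes the iron-binding acute-phase protein lipocalin-2 and is an NF-kB target, fell into separate levels that did not follow the groups. Control replicates 2, 4 and 5 had 167, 140 and 181 counts and circTau6 replicate 3 had 103, while the other 6 libraries had 5 to 22. Its edgeR log2 fold change of −1.79 ± 1.09 (SE) had an adjusted p of 0.981. Of the members, Icam1, Tnf, Il1b and Tgfb1 were highest by CPM in circTau6 replicate 3 and Nlrp3 in control replicate 5, and none was highest in control replicate 2 or 4.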
